A study of Mus musculus with 2 samples.

Results

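The mouse microRNAs (miRNAs) with names numbered 3000 or higher were examined in lung after treatment with monocrotaline (MCT) and in untreated lung. MCT is an alkaloid of Crotalaria plants whose liver metabolite damages the endothelium of the lung, and it is used in rodents to model pulmonary arterial hypertension. The members are the miRNA probes whose name carries such a number and whose target has under 70% G plus C, without the probe named miR-3107-5p. They come to 193 of the 1141 mouse miRNA probes on the array, with numbers between 3057 and 5710. Lung tissue labelled wild type was profiled on 1 array for the MCT group, from mice 14 weeks old given MCT for 30 days, and on 1 array for the untreated group. The age of the untreated mice, the strain, and whether a sample held 1 lung or a pool are not given in the sources used here. With 1 array per group no difference has a replicate check, and no test and no p-value was computed.

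A miRNA is cut from a hairpin precursor, usually leaving a short RNA from the 5p or the 3p arm, and it recognises messenger RNAs mainly through its seed, bases 2 to 8. Numbers are given in the order of registration, so high numbers belong to sequences found late, mostly by deep sequencing and often at low abundance. Some late entries overlap repeats, other small RNAs or close copies of well-known miRNAs, which makes their sequences useful beside their signal.

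Intensities are given as the scanner measured them for the 3 repeat spots of each miRNA, and levels are normalized log2 intensities averaged over those spots. The error given with ± is the standard deviation (SD) of the 3 spots, and the SDs of both arrays were combined in quadrature for a ratio. These errors show the spread within an array and not between animals. The brightness of a spot depends on its probe as well as on its target, so levels are compared between arrays for the same miRNA and not between miRNAs. A lower level in whole tissue could reflect fewer cells of a type or less of the miRNA per cell, and these cannot be told apart here.

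Sequences of the members on which the results turn are shown with their closest relatives, in RNA letters, as the array's target sequences give them. For miR-3962, miR-3970, miR-3965, miR-3966 and miR-3967, capitals mark the bases identical in the best ungapped alignment with a miRNA of a lower number, shown under each. They are printed because 5 such near-copies differ by only 1 or 2 bases from abundant lung miRNAs.
miR-3962: AGGUAGUAGUUUGUACAuUU
let-7g-5p: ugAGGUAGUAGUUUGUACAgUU
miR-3970: GAGGUuGUAGUUUGUGCUuU
let-7i-5p: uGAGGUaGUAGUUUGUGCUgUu
miR-3965: uGCUUAUCAGcCUGAUGUU
miR-21-5p, aligned with miR-3965: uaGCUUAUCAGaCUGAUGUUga
miR-3967: AGCUUgUCuGACUGAUGUUG
miR-21-5p, aligned with miR-3967: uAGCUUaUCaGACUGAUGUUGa
miR-3966: AGCUGCCAGcUGuAGAACUGU
miR-22-3p: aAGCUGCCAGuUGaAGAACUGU

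A second set is shown because both members called lower in the MCT library, miR-3473b and miR-5128, belong to it. Capitals mark a run of 9 bases that 3 probes of the array hold.
miR-3473b: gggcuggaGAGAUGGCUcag
miR-5128: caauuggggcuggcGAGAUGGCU
miR-3473: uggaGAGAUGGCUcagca

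For other bright or called members, and for miR-5119, which was just short of a call, capitals mark the seed.
miR-3963: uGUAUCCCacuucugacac
miR-5099: uUAGAUCGauguggugcucc
miR-3097-5p: cACAGGUGggaagugugugucca
miR-3082-5p: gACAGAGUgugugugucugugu
miR-5121: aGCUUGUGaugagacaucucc
miR-5119: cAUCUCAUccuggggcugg

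Of the 193 members, 161 had the same mature sequence in RefSeq, 150 of them by name and 11 by sequence, 21 were matched to a miRNA gene only, and 11 had no match. Places are those of RefSeq on the mouse build GRCm38.p6. miR-3962 lies at chr1:194822035-194822054 on the plus strand and miR-3963 at chr3:151023839-151023857 on the minus strand. miR-3473b lies at chr10:41670774-41670793 (+) inside Ccdc162, miR-5128 at chr2:37688212-37688234 (-) inside Strbp, and miR-3473 at chrX:162874920-162874937 (-) inside Syap1. Of the 38 detected members with a mature place, 33 lay within another annotated gene, and so did 103 of the 123 undetected ones.

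Most late-annotated miRNAs gave no signal above empty spots in either lung. A miRNA was called detected when at least 2 of its 3 spots exceeded the 95th percentile of the empty spots of that array. This held for 28 members (14.5%) in MCT-treated lung and for 49 (25.4%) in untreated lung, while 74.6% were detected in neither. Over all miRNA probes the detected share was 27.7% in MCT-treated and 35.3% in untreated lung. Among miRNAs with lower numbers and the same limit on GC content it was 30.0% and 36.3%. The gap varied with GC content, as shares in untreated lung show for members and for lower numbers in turn. They were 21.1% and 28.2% under 40% GC, and 14.6% and 35.2% from 40% to under 50%. From 50% to under 60% they were 21.1% and 40.4%, and from 60% to under 70%, 44.0% and 43.8%. No member was detected in MCT-treated lung alone, and 21 were detected in untreated lung alone. Of all 1141 miRNA probes 64.2% were detected in neither lung, 6 probes in MCT-treated lung alone and 93 in untreated lung alone.

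The array background differed between the groups and moves with these counts. The 257 empty spots had a median intensity of 253 on the MCT array and 101 on the untreated array, and the detection limits were 284 and 116. Undetected members had a median spot intensity of 218 on the MCT array, below its empty spots, and 98.7 on the untreated array. With a limit taken from dim miRNA spots instead, 239 on the MCT array and 114 on the untreated array, 52 members were detected in MCT-treated and 53 in untreated lung. The gap between the lungs was 21 members with the empty-spot limit and 1 with this limit.

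Detection differed along the numbering. Of the 87 members from miR-3057 to miR-3099, 7 (8.05%) were detected in MCT-treated and 16 (18.4%) in untreated lung. The 35 members from miR-5046 to miR-5136 had 10 (28.6%) in MCT-treated and 15 (42.9%) in untreated lung, while the 25 with higher numbers had 2 and 3. Among the 10 members from miR-3470 to miR-3475, which include the miR-3470 and miR-3473 groups, 3 were detected in MCT-treated and 7 in untreated lung. For comparison, the 594 probes of let-7 and numbers under 500 had 34.7% in MCT-treated and 39.7% in untreated lung. The next 204 probes by number had 24.5% and 31.9%. The 127 probes nearest below 3000 had 17.3% in MCT-treated and 29.1% in untreated lung, close to the 14.5% and 25.4% of all members. Low detection was thus not particular to the members. These lower blocks carry no limit on GC content. The order of the number blocks was therefore not one steady decline. The blocks also differed in GC content, with a median of 54.5% from miR-5046 to miR-5136 and 45.5% at higher numbers.

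**Figure D1:**
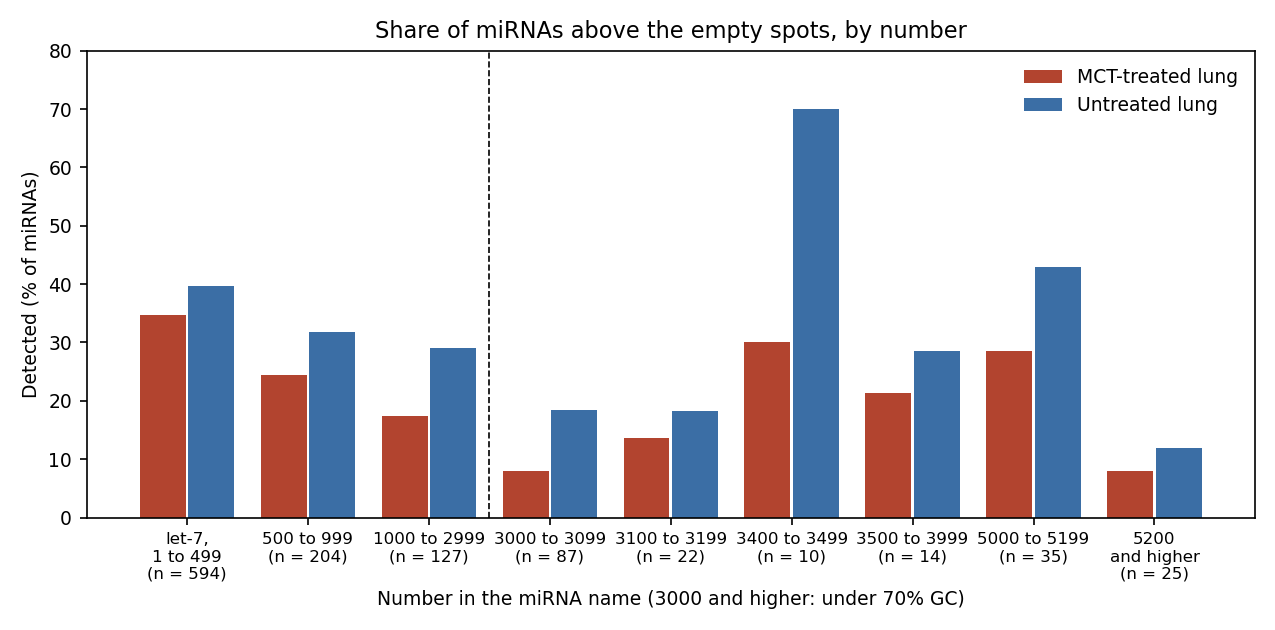
Share of miRNAs detected above the empty spots (y axis, percent) by the number in the name (x axis), with MCT-treated lung left of untreated lung in each pair of bars. The dashed line separates numbers under 3000 from the members, whose first block (miR-3057 to miR-3099) has 8.05% in MCT-treated and 18.4% in untreated lung.

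Detected hairpins mostly gave signal from a single arm. Both arms of 62 hairpins were members, and 18 of these hairpins had a detected arm. Both arms were detected for miR-3068 in each lung and for miR-3084 in untreated lung only. The remaining 16 had signal from 1 arm. Thus miR-3097-5p had levels of 10.12 in MCT-treated and 10.60 in untreated lung, whereas miR-3097-3p was not detected (6.39 and 6.38). miR-3082-5p, miR-5117-5p and miR-5622-3p were likewise detected in both lungs with an undetected opposite arm. Few arms were detected at all: 16 of the 74 members named 3p and 9 of the 64 named 5p in untreated lung. In MCT-treated lung these counts were 8 and 5. Hairpins with lower numbers were not counted, so single-arm signal is not read as particular to the members. The arms of miR-3068, which lies inside Alkbh1 (chr12), had log2 ratios of MCT over untreated lung of 0.076 ± 0.23 for 5p, with overlapping spots, and -0.64 ± 0.067 for 3p, with all MCT spots lower. The direction of miR-3068-3p turned without normalization, to 0.41, and with median centring or 5S scaling, to 0.19 in both cases.

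The probe of miR-5112 gave the brightest spots among the members on both arrays. They read 23266, 23755 and 22806 in MCT-treated lung and 17194, 17399 and 17065 in untreated lung, and its levels were 14.23 ± 0.039 and 14.32 ± 0.010. The normalized spots of the MCT array lay all below those of the untreated array, but the log2 ratio was small, at -0.084 ± 0.040, and it turned to 0.43 without normalization. miR-5099 read 11815, 11477 and 11650 in MCT-treated lung and 4686, 5110 and 4799 in untreated lung, with levels of 12.98 ± 0.046 and 12.79 ± 0.050 and a ratio of 0.19 ± 0.068. The scaling between the arrays matters here, and each ratio is relative to the other miRNAs: without normalization the median ratio of all 409 miRNAs detected in either lung was 0.70, against -0.044 after it.

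**Figure D2:**
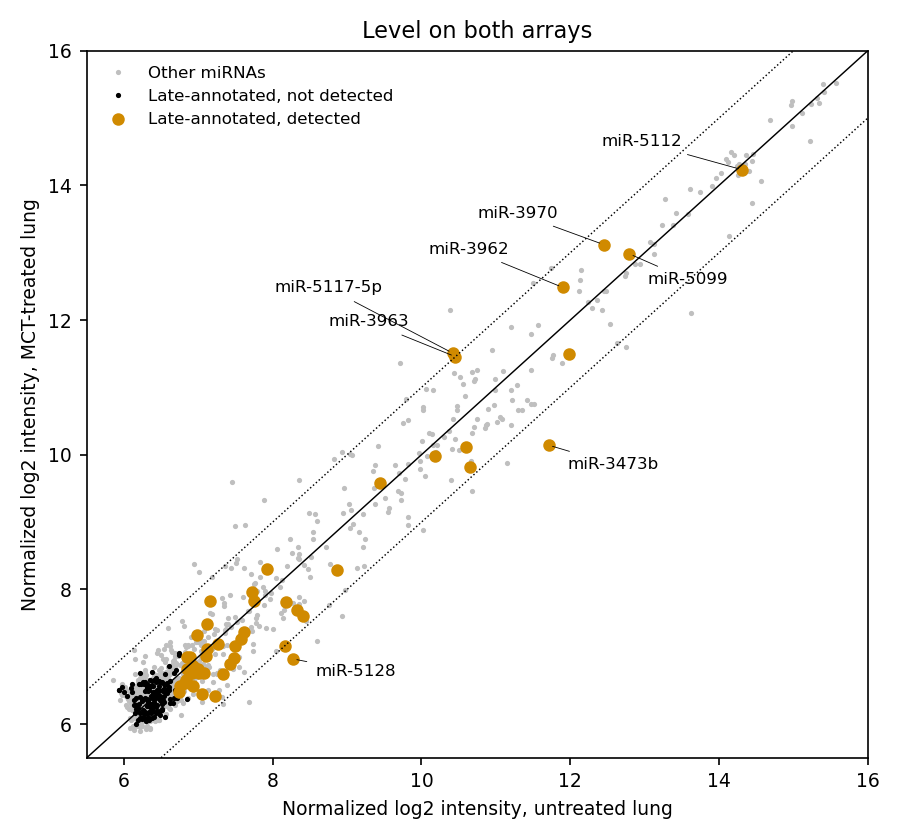
Normalized log2 intensity of each miRNA in MCT-treated lung (y axis) against untreated lung (x axis), with detected members, undetected members and the other miRNAs as separate point groups, a solid line of equal levels and dotted lines at 2-fold. miR-5112, at 14.23 in MCT-treated and 14.32 in untreated lung, lies at the bright end of the members, and most members lie at the dim end.

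The let-7 look-alikes miR-3962 and miR-3970 were among the brightest members. let-7 miRNAs are abundant in differentiated tissue, where they restrain growth-promoting genes. miR-3962 aligned with let-7g-5p (chr9:106178846-106178867, plus strand) over 20 bases with the single substitution U18G, and miR-3970 with let-7i-5p (chr10:122985698-122985719, minus strand) with U6A and U19G. Positions count from the 5′ end of the member, whose base is given first and the let-7 base last. miR-3970 had spots of 12427, 11880 and 12132 in MCT-treated and 3180, 4079 and 4224 in untreated lung, levels of 13.12 ± 0.037 and 12.45 ± 0.20, and a log2 ratio of 0.67 ± 0.21. miR-3962 had 8939, 8440 and 8503 in MCT-treated and 2177, 2629 and 2941 in untreated lung, levels of 12.49 ± 0.057 and 11.90 ± 0.24, and a ratio of 0.59 ± 0.24. For both, every normalized MCT spot was higher than every untreated spot, and both stayed short of 2-fold.

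Their relatives differed little between the lungs. let-7g-5p had levels of 14.47 in MCT-treated and 14.46 in untreated lung, a ratio of 0.011 ± 0.105. let-7i-5p had 14.37 and 14.45, a ratio of -0.080 ± 0.090. How much of the signal of the 2 members came from let-7 RNA bound by their probes was not tested.

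Near-copies of abundant miRNAs included detected and undetected members. In a search made after the values were seen, 10 members had at least 17 identical and at most 3 different bases against a miRNA of a lower number, and 8 of these were among the 10 members from miR-3962 to miR-3971. For 7 of the 10 the relative had a level of 12 or higher in both lungs, and 2 of the 7 (28.6%), miR-3962 and miR-3970, were detected, in both lungs. That share is close to the 27.7% in MCT-treated and 35.3% in untreated lung over all miRNA probes, so nothing about likeness is read from it. The 5 undetected ones, with levels between 6.29 and 6.62, were miR-3965 and miR-3967 beside miR-21-5p, miR-3966 beside miR-22-3p, and miR-3971 and miR-5127 beside miR-150-5p.

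The undetected near-copies are described next to the miRNAs they resemble. miR-21-5p, a miRNA raised in fibrosis and inflammation, had levels of 14.36 in MCT-treated and 14.12 in untreated lung. miR-3967, which differs from it by G6A and U9A, had 6.42 and 6.36. miR-3965, with U1A and C11A, had 6.49 in MCT-treated and 6.48 in untreated lung. miR-3966 differs from miR-22-3p by C10U and U13A, and it had 6.38 and 6.29 where miR-22-3p had 12.69 in MCT-treated and 12.75 in untreated lung. miR-3971 differs from miR-150-5p, a lymphocyte miRNA, by C6A and C11U. It had 6.46 in MCT-treated and 6.44 in untreated lung, beside 13.59 and 13.42 for miR-150-5p. The differences of these 4 near-copies lay in the first 13 bases. The only difference of miR-3962 was at base 18, and miR-3970, also detected, differs at base 6 as well as at base 19. The positions for miR-5127 are not given here, and whether position bears on detection was not tested.

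Other members run antisense to known miRNAs. Of 15 members whose hairpin lies opposite an annotated hairpin, 1 (6.67%) was detected, miR-3544-3p, beside 25.4% of all members in untreated lung and 35.3% of all miRNA probes. It shares 20 bases in reverse complement with miR-337-5p, and it reached detection in untreated lung only, with levels of 6.82 in MCT-treated and 6.85 in untreated lung and overlapping spots. miR-3074-5p lies opposite miR-24-3p, which had 14.30 in MCT-treated and 14.31 in untreated lung, and miR-3074-5p itself was not detected. Capitals mark the complementary run of 20 bases of that pair, shown because the strand of the abundant miRNA alone gave signal.
miR-3074-5p: GUUCCUGCUGAACUGAGCCAgu
miR-24-3p: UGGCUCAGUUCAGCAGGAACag

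The members past 2-fold between the lungs were miR-5117-5p and miR-3963, both higher in MCT-treated lung, and miR-3473b and miR-5128, both lower. A call required detection in either lung, a log2 ratio of at least 1 in size, and repeat spots that do not overlap between the arrays. Of the 49 detected members 2 were higher and 2 lower, beside background shares of 4.16% higher and 2.2% lower over the 409 miRNAs detected in either lung. Counts this small are near that background and show nothing particular to the late-annotated miRNAs. The ratio lay within 1.5-fold for 35 of the 49, beside 317 of the 409.

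miR-5117-5p had spots of 4334, 4404 and 4346 in MCT-treated and 854, 1031 and 1021 in untreated lung. Its levels were 11.51 ± 0.0093 and 10.42 ± 0.12, and the log2 ratio was 1.09 ± 0.12, or 2.13-fold. All 3 normalized MCT spots were higher than the untreated ones. Its target was A- and U-rich, with 26.1% G plus C. With the trend of the ratio along GC content removed by a lowess fit its ratio was 0.95, and with the authors' processed values, 2643 in MCT-treated and 1377 in untreated lung, it was 0.92, both under the limit of 1.

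miR-3963 had spots of 4289, 4240 and 4148 in MCT-treated and 1055, 955 and 993 in untreated lung, with levels of 11.46 ± 0.026 and 10.46 ± 0.072. Its ratio of 1.00 ± 0.077 sat at the limit. Without background correction it was 0.97, with cyclic loess 0.92 and with the GC trend removed 0.96, which ended the call. The authors' values (0.84) and leaving out the second repeat spot (0.96) ended it as well. miR-3968, which shares 15 of 19 aligned bases with it, was not detected in either lung.

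miR-3473b had spots of 2324, 1141 and 2247 in MCT-treated and 2198, 2231 and 2312 in untreated lung, levels of 10.14 ± 0.75 and 11.71 ± 0.080, and a ratio of -1.56 ± 0.75, or 2.96-fold lower. The scanner intensities of 2 MCT spots lay within or just above the untreated range, and all 3 MCT spots became lower after normalization. After normalization the second MCT spot, at 9.28, lay more than 2-fold below the others, at 10.59 and 10.56, as no other spot of a detected member did. With the median of the spots the ratio was -1.12, without the second spot -1.15, and without normalization -0.41. The direction held under each of these, while the size depended on that spot and on the scaling. Leaving out the second spot and the normalization together was not tried, so whether the direction also rests on that spot cannot be told. The call ended without normalization, with centring on the median and with scaling by 5S ribosomal RNA.

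miR-5128 had spots of 284, 258 and 268 in MCT-treated lung, where only the first reached the detection limit, and 232, 207.5 and 228 in untreated lung. Its levels were 6.97 ± 0.11 in MCT-treated and 8.27 ± 0.10 in untreated lung, which makes MCT-treated lung lower by at least 2.29-fold under this processing. It entered the comparison only through the untreated array, where it passed the limit. Across all alternatives its log2 ratio ranged from -2.23 to -0.49. The call ended without background correction (-0.97), without normalization (-0.49), with centring on the median or scaling by 5S ribosomal RNA (-0.71 in both cases), and when detection on both arrays was required.

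miR-3473b and miR-5128 are related in sequence: 16 of 17 aligned bases were identical. miR-3473 was identical to miR-3473b over 16 bases. Its spots read 264, 260 and 256 in MCT-treated and 150, 157 and 158 in untreated lung, with levels of 6.89 ± 0.037 and 7.42 ± 0.072 and a ratio of -0.53 ± 0.081, all MCT spots being lower. It was detected in untreated lung only, and the bound on its fold was at least 1.28-fold lower. The relation was looked for after the calls were known, and probes this alike can bind the same RNA, so the 3 values may not be separate measurements. These names do not follow the likeness throughout: miR-3473d, a different sequence inside Ddx19b, had 448, 445 and 435 in MCT-treated and 133, 134 and 151 in untreated lung, with a ratio of 0.67 ± 0.18 and all MCT spots higher.

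**Figure D3:**
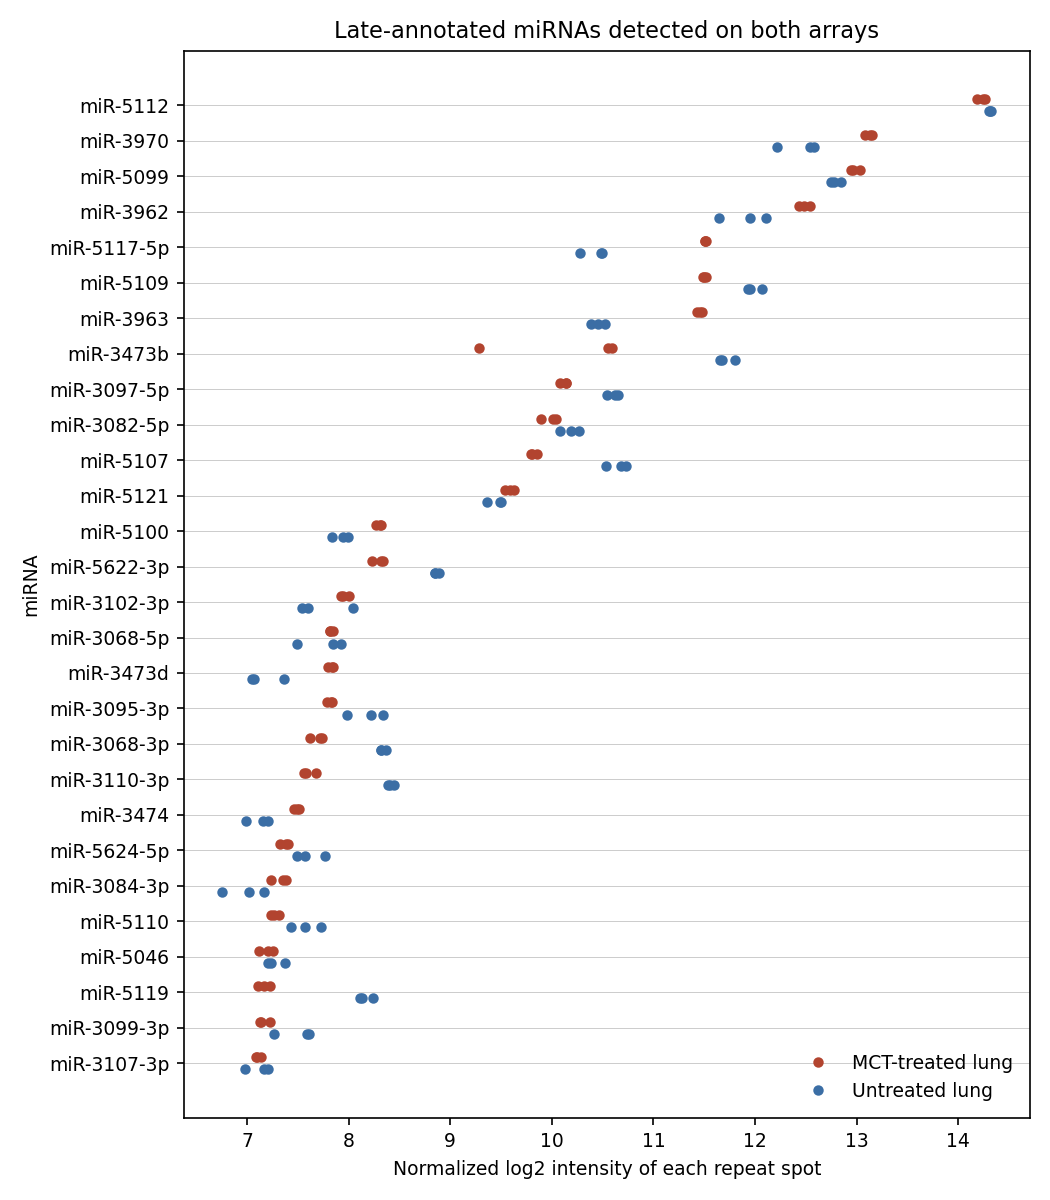
Normalized log2 intensity of each repeat spot (x axis) for the members detected on both arrays (y axis), with MCT-treated and untreated lung in separate colours. The spots of miR-5117-5p and miR-3963 are clear of each other with MCT higher, and miR-3473b shows 1 MCT spot, at 9.28, far below its other MCT spots at 10.59 and 10.56.

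Over the 28 members detected in both lungs 12 log2 ratios were positive and 16 negative, and the median was -0.082, against 0.023 over all 310 such miRNAs. Among the 12 of these with a level of 9 or higher in both lungs 6 were positive and 6 negative, and among the 16 dimmer ones 6 were positive and 10 negative. Of all 49 members 26 (53.1%) had all spots lower and 11 (22.4%) all spots higher on the MCT array, and in 12 the spots overlapped. Over all miRNAs detected in either lung these shares were 36.7% lower and 33% higher. The median log2 ratio of the 49 was -0.19, against -0.044 over all 409. Members detected only in untreated lung entered through the array where they passed the limit, so these counts carry that choice. The median turned to 0.36 without normalization and to 0.14 with centring on the median or scaling by 5S ribosomal RNA, so no direction is read from them.

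Other members were lower in MCT-treated lung by less than 2-fold. miR-5119, inside Cdk12 (chr11), had spots of 287, 306 and 296 in MCT-treated and 203, 201 and 221 in untreated lung, levels of 7.17 ± 0.060 and 8.16 ± 0.066 and a ratio of -0.99 ± 0.089. All its MCT spots were lower after normalization, and it was just short of the limit. It passed 2-fold with a local background (-2.01), an offset of 16 (-1.19), without the second repeat spot (-1.05) and with the authors' values (-1.24), and it was -0.15 without normalization. miR-5107 had spots of 1622, 1582 and 1559 in MCT-treated and 1061, 1192 and 1240 in untreated lung and a ratio of -0.83 ± 0.11. miR-3110-3p had -0.81 ± 0.068, miR-5129, detected in untreated lung only, -0.79 ± 0.17, miR-5622-3p -0.57 ± 0.062, miR-5109 -0.49 ± 0.077 and miR-3097-5p -0.48 ± 0.062. Each of these had all MCT spots lower. Without normalization the direction turned for miR-5107 (0.36), miR-3110-3p (0.21), miR-5622-3p (0.67), miR-5109 (0.65) and miR-3097-5p (0.60), and it held for miR-5129 (-0.44). On the other side miR-5100, inside Mief2 (chr11), had 0.38 ± 0.085 and miR-3474, inside Actr5, 0.37 ± 0.12, with all MCT spots higher, while miR-3102-3p had 0.23 ± 0.28 with overlapping spots.

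miR-5121 overlaps another small RNA gene. It lies at chr7:45126925-45126945 on the minus strand, within the ribosomal protein gene Rpl13a and its small nucleolar RNA Snord33, a guide of ribosomal RNA modification. Its spots read 1361, 1379 and 1310 in MCT-treated and 430, 467 and 471 in untreated lung, with levels of 9.58 ± 0.045 and 9.45 ± 0.078 and a ratio of 0.13 ± 0.090. The array cannot tell a miRNA from a fragment of the host RNA. miR-3082-5p, a GU-rich sequence inside Jmjd8 and Stub1 (chr17), had 9.98 ± 0.076 in MCT-treated and 10.18 ± 0.092 in untreated lung and a ratio of -0.20 ± 0.12. Its direction turned with the scaling, to 1.01 without normalization, 0.79 with centring on the median or scaling by 5S ribosomal RNA and 0.42 with centring on the 75th percentile.

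Members detected in untreated lung alone were dim, with untreated levels between 6.74 and 8.27. For 14 of the 21 the lower bound of the fold was under 1. Besides miR-5128 and miR-3473, bounds under this processing were at least 1.32-fold lower for miR-5620-3p, at least 1.19-fold for miR-3090-5p and at least 1.11-fold for miR-5129, and without normalization the log2 ratio of miR-5620-3p was 0.064. For the remaining pair, miR-3081-5p (-0.092 ± 0.30) and miR-3085-3p (-0.31 ± 0.24), the spots overlapped and no bound is given. The pair miR-3470a and miR-3470b, identical at 20 of 21 bases, belonged to the 14, with ratios of -0.20 ± 0.091 and -0.18 ± 0.16. Just under the limit of 284 on the MCT array were miR-5120, with a median spot of 279, miR-5620-3p with 278 and miR-3060-3p with 276. On the untreated array the nearest to its limit of 116 were miR-3106-5p, miR-3060-3p and miR-5103, each with a median spot of 115.

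Ratios were lower at higher GC content among the members, though not steadily, and among all miRNAs. Over the 28 members detected in both lungs Spearman's rho between GC content and log2 ratio was -0.44, and over all 310 such miRNAs it was -0.36, given as a description since miRNAs on an array pair share its scaling. The 11 members with at most 50% G plus C had a median ratio of 0.13, equal to the 0.13 of the 175 miRNAs with lower numbers in that range. The 11 members above 60% had -0.084, against -0.25 for the 39 with lower numbers. Those 39 include probes with 70% or more, which the members leave out. From 60% to under 70% the 30 with lower numbers had -0.18. Between 50% and 60% the 6 members had -0.32 and the 58 with lower numbers had -0.050.

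**Figure D4:**
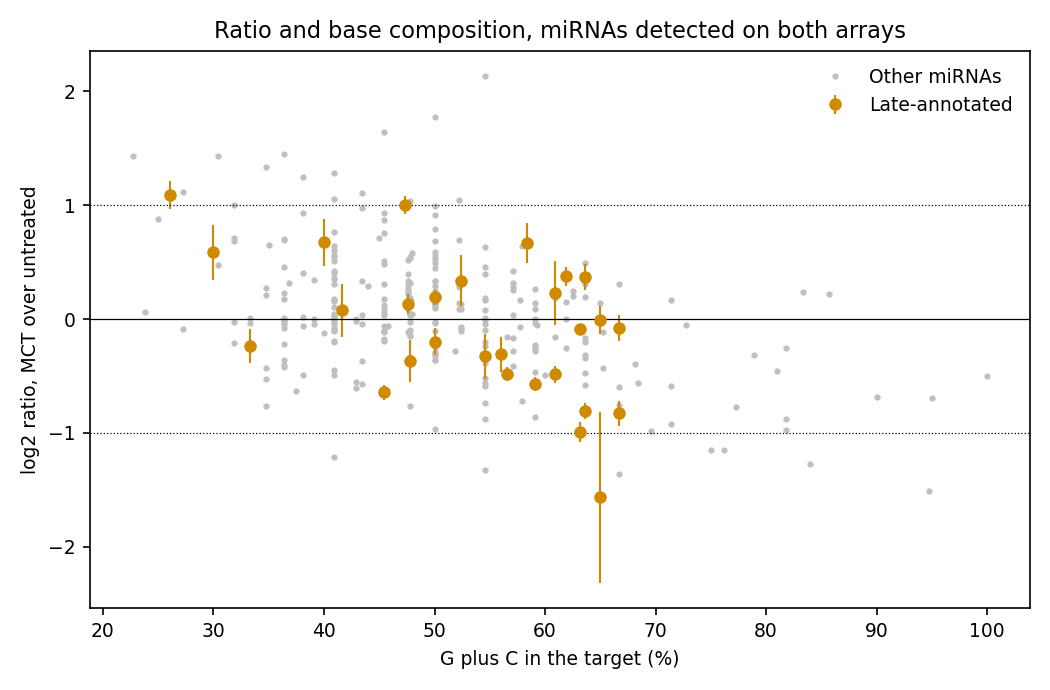
log2 ratio of MCT over untreated lung (y axis) against the G plus C content of the target in percent (x axis) for miRNAs detected on both arrays, with members and other miRNAs as separate point groups and dotted lines at 2-fold. miR-5117-5p, at 26.1% and 1.09, is the member at the upper left, and the members above 60% have a median of -0.084.

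The scaling between the arrays moved the ratios of these members together. The ratio of miR-3970 ranged from 0.54 to 1.67 and that of miR-3962 from 0.43 to 1.74 over all alternatives, and both passed 2-fold without normalization, with centring on the median or the 75th percentile, and with scaling by 5S ribosomal RNA. With the authors' values miR-3970 passed it too, at 1.04. miR-5117-5p ranged from 0.92 to 2.16 and miR-3963 from 0.84 to 2.06, with no change of sign. miR-5107 ranged from -1.05 to 0.36 and miR-5109 from -0.51 to 0.65, so their direction turned with the scaling. Without normalization 26 of the 49 detected members changed sign, and with centring on the median 17 did.

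**Figure D5:**
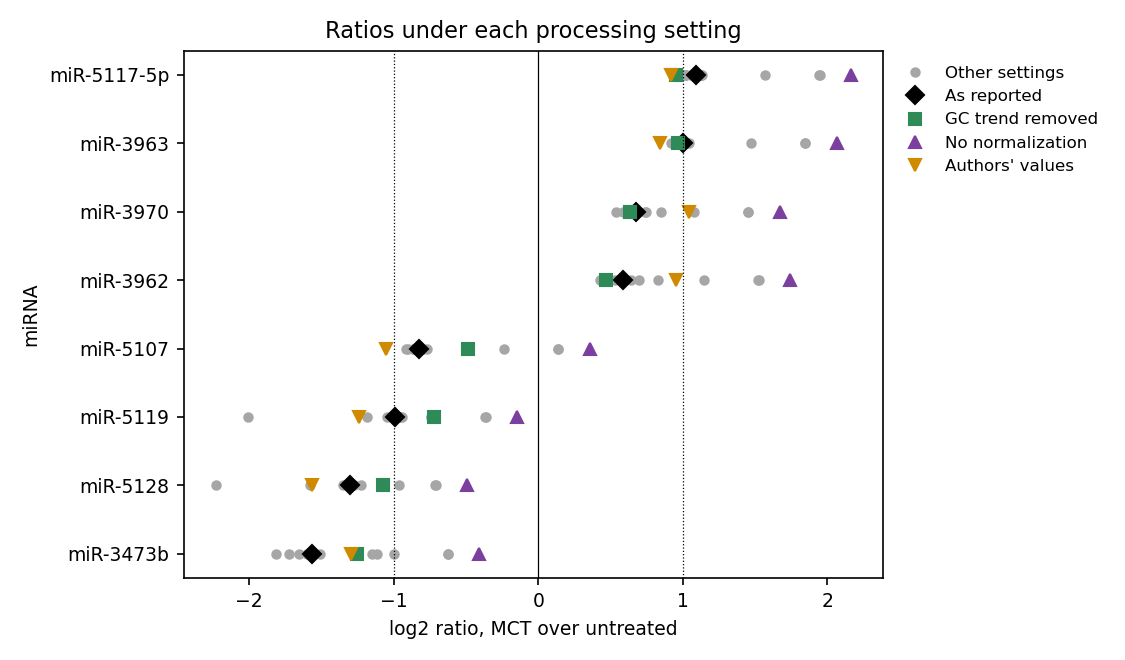
log2 ratio of MCT over untreated lung (x axis) of selected members (y axis) under each processing setting, with 1 point per setting and dotted lines at 2-fold. miR-5117-5p, miR-3963, miR-3970 and miR-3962 stay above 0 under every setting, miR-3473b and miR-5128 stay below 0, and miR-5107 crosses 0. Without normalization miR-3473b is at -0.41 with its low second MCT spot included.

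Values at the edges of the selection were as follows. The lowest-numbered members, miR-3057-3p and miR-3057-5p, were undetected, and the nearest lower-numbered probe, miR-2861, is GC-rich (94.7%) with levels of 12.11 in MCT-treated and 13.62 in untreated lung. The member with the highest GC content, miR-5111-3p at 68.4%, had 6.65 and 6.40, and miR-3113-3p, left out at 70%, had 6.47 and 6.50. The 22 late-annotated probes with 70% or more were detected in 9 cases (40.9%) in MCT-treated and 15 (68.2%) in untreated lung. The probe left out by name, miR-3107-5p, had 11.44 and 11.76, while miR-3107-3p, a member with 20 bases in common with miR-486-3p of red blood cells, had 7.11 in MCT-treated and 7.12 in untreated lung, with overlapping spots.

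The tissue label was checked against marker miRNAs. The endothelial miR-126-3p had levels of 15.22 in MCT-treated and 15.34 in untreated lung, the epithelial miR-200c-3p 12.84 and 12.88, and the smooth muscle miR-145-5p 14.97 and 14.69. The other epithelial markers were higher in MCT-treated lung by less than 2-fold, with log2 ratios of 0.51 for miR-200a-3p, 0.46 for miR-200b-3p, 0.77 for miR-429-3p and 0.61 for miR-141-3p, which was detected in MCT-treated lung only. Brain miR-124-3p and miR-9-5p and heart miR-208a-3p and miR-208b-3p were undetected on both arrays, whereas the heart and muscle miR-1a-3p was detected on both (12.65 in MCT-treated, 12.74 in untreated lung), and liver miR-122-5p passed the limit in untreated lung only (6.31 in MCT-treated, 6.79 in untreated lung). The myeloid miR-223-3p was lower in MCT-treated lung after normalization, with 9.46 against 10.68. Its scanner spots overlapped, at 1248, 1295 and 1243 in MCT-treated and 983, 1273 and 1326 in untreated lung. The other white blood cell markers were miR-150-5p, with 13.59 in MCT-treated and 13.42 in untreated lung, and miR-142-3p, undetected on both arrays. Red blood cell miR-451 had 15.08 and 15.12, and miR-144-3p was undetected on both arrays. Endothelial miR-126-5p was detected in untreated lung only (6.70 in MCT-treated, 6.99 in untreated lung). Smooth muscle miR-143-3p had 13.94 and 13.61. The part of these markers in the members' ratios was not tested.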

How the data were processed

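Lung RNA was hybridised to 1 single-colour Cy3 array per group by a service provider, per the labels' protocols, after poly(A) tailing of 2 µg of total RNA. The scanner tables hold the median pixel intensity of each of 3968 spots, per the file headers. The deposited value table gives 1 intensity per probe as processed by the authors, on a linear scale. The sources used here do not say how. It served as an alternative with a pseudocount of 50.

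Spot intensities were corrected with normexp (offset 50) in limma 3.58.1 under R 4.3.3, put on the log2 scale, quantile normalized over miRNA spots between the arrays, and averaged over 3 spots. For a miRNA detected on 1 array, the bound of the fold uses the higher of its own level and the lowest detected level on the other array. Other steps used Python 3.11.15, pandas 2.3.3, statsmodels 0.14.6 and matplotlib 3.10.9. The pipeline was tested on simulated arrays. The number of arrays limits the precision.

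The members, lists and naming rule were chosen with earlier results of these data known. Named were calls, up to 8 members detected in 1 library by bound, the 10 brightest per library, the 8 largest ratios per direction, hairpins with a detected arm, detected members sharing 14 or more bases with another probe, members with a deviating spot, the 3 undetected members nearest each limit and miRNAs at the edges of the selection. Near-copies, the miR-3473b group and their relatives were named after values were seen. Alternatives covered background, offset, scaling, spots, detection, threshold, GC trend and the authors' values. Sequences are credited to the array tables and RefSeq (GRCm38.p6). Sequences of miR-5112, miR-5107, miR-5109, miR-5117-5p and miR-5127 are not shown here.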

Additional observations from a re-analysis of the deposited data

How the results depend on the processing

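No paired analysis was possible because each group had 1 array. The count of members higher in MCT-treated lung was 2 and that of lower members 2. Without normalization they were 11 and 0, centred on the median 8 and 0, and scaled by 5S ribosomal RNA 8 and 0, where the median ratio was 0.36, 0.14 and 0.14 instead of -0.19. Centring on the 75th percentile gave 4 higher, cyclic loess 1, and leaving out repeat spot 2 gave 1. Without background correction 1 was higher and 1 lower. A local background gave 8 lower and an offset of 16 gave 4 lower. A 1.5-fold limit gave 5 higher and 9 lower, the authors' values 1 and 4, and requiring detection in both libraries 1 lower. The 1.5-fold limit gave 46 and 44 of all miRNAs, and the authors' values 20 and 16. Leaving out repeat spot 2 gave 16 and 11, and requiring detection in both libraries 17 and 8. With the GC trend removed no member was higher, beside 13 of all miRNAs. The median ratio of the members was then -0.018, and with no detection filter it was -0.040. A limit from dim spots raised the detected members to 52 in MCT-treated lung. The remaining counts of members stayed within 1.5 times, and the cause of these shifts was not tested beyond the change each setting makes. Levels near the empty spots limit dim members most.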

Other observations

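The probes named miR-3473 and its lettered relatives had ratios of either sign. miR-3473b, miR-3473 and miR-3473c had log2 ratios of -1.56 ± 0.75, -0.53 ± 0.081 and -0.19 ± 0.14, and miR-3473d had 0.67 ± 0.18. Shared seeds were rare: 6 members carried the seed of a miRNA with a lower number, and 3 of these were detected. They were miR-3107-3p and miR-3473d in both lungs and miR-3473 in untreated lung only. In untreated lung 25.4% of all members and 35.3% of all miRNA probes were detected, and nothing is read from so small a count.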
